A study of Mus musculus with 12 samples.

Results

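Mouse bone marrow cells that carried CEBPA V314VW alone were compared with cells that carried empty vector, gene by gene. The comparison rests on 3 libraries of each kind, named replicates A, B and C, which make up 6 of the 12 libraries of the study. The other 6 libraries carried CSF3R T618I, an activating mutant of the granulocyte colony-stimulating factor receptor, either alone or together with CEBPA V314VW, and were used here to share the estimate of spread between replicates and to ask where the response to mutant CEBPA differed when mutant CSF3R was present. Of 51912 genes in the count table, 16360 had enough counts to be tested. All 4 groups came from C57BL/6 mice, were grown in medium conditioned by WEHI cells with SCF, IL-3 and IL-6 while retroviral vectors were introduced, were sorted for GFP and RFP and for absence of lineage markers, and were frozen before RNA extraction. The mutant was delivered on top of the intact mouse Cebpa gene and was driven by a retroviral vector, so the comparison describes overexpression of a mutant CEBPA in primary marrow progenitors during short culture and not an edited allele. The labels do not say whether libraries with the same letter share an animal or a culture, so p-values measure the spread between these samples, which may be technical.

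CEBPA encodes a basic leucine zipper transcription factor that binds DNA as a dimer and directs progenitors toward granulocytes and monocytes. C-terminal mutants found in acute myeloid leukemia, such as V314VW, alter the DNA-binding and dimerization region, whereas N-terminal mutants shorten the protein. Granulocyte precursors make their granule proteins in waves, with primary granule proteases first and secondary granule proteins later, and this order is widely used to read how far cells have matured.

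The 6 libraries held 44210071 to 51244889 counts each, and 21898 to 23078 genes had at least 1 count in a library. Mitochondrial transcripts took 0.331 to 0.605% of counts, and the 100 most abundant genes took 13.7 to 15.3%. Of 16 markers of the sorted population and its excluded lineages, 11 passed the expression filter, and Cd3e, Cd3g, Cd4 and Cd8a were among those that did not. Kit, the SCF receptor of progenitors, was at 148 to 278 CPM in empty vector libraries and 82.7 to 159 CPM with CEBPA V314VW. Ly6g, a neutrophil surface marker, stayed at or below 0.612 CPM in all 6 libraries. Itgam, which encodes CD11b, was at 14.9 to 23.5 CPM and 8.32 to 15.3 CPM. CPM values here are gene counts scaled to a common library size after normalization, and they compare a gene between libraries but not 1 gene with another of different length. Since RNA was taken from bulk populations, fewer cells of a type and less RNA per cell cannot be told apart in any result that follows.

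CEBPA V314VW changed many genes, and among called genes the changes upward were larger than the changes downward. A gene was called when its edgeR quasi-likelihood adjusted p was under 0.05 and its log2 fold change was beyond 1 in size. By this rule 1497 genes (9.15% of those tested) were called, of which 910 were higher (5.56%) and 587 lower (3.59%). The median log2 fold change over all tested genes was 0.0041, a value that the scaling of the libraries sets near 0, so a shift shared by most genes could not be seen. Among called genes, 463 were higher by more than 2 on the log2 scale and 204 were lower by that much, and beyond 5 the counts were 102 and 12. Genes called higher had a median of 0.718 CPM in empty vector cells and 3.66 CPM with CEBPA V314VW, and 502 of the 910 averaged under 1 CPM in empty vector cells. Genes called lower fell from a median of 3.82 CPM to 1.13 CPM, set against a median of 13.1 CPM over all tested genes. A gene near 0 CPM in empty vector cells can be called only by rising. The lower starting level of genes called higher is therefore set in part by the filter and the call rule. On their higher side the sets had similar medians, 3.66 CPM and 3.82 CPM. Called genes of both directions thus lay below the typical level of expression. In summed abundance the genes called higher went from 7661 to 24639 CPM, and those called lower went from 20022 to 7105 CPM. The values of the groups did not overlap for 1494 of the 1497 called genes, whereas 35.2% of all tested genes showed no overlap.

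**Figure D1:**
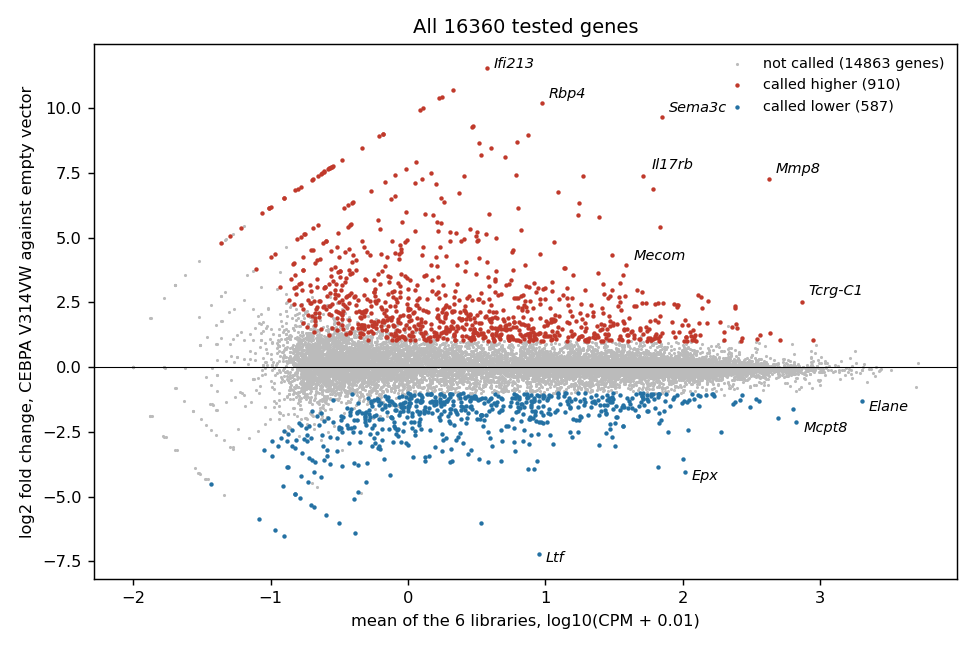
Each point is 1 of the 16360 tested genes, with the base-10 logarithm of its mean CPM over the 6 libraries on the horizontal axis and its log2 fold change, CEBPA V314VW over empty vector, on the vertical axis. The 910 genes called higher reach farther from 0 than the 587 called lower, and the cloud as a whole is centred near 0.

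Counts on the mouse Cebpa gene rose only modestly. Cebpa (ENSMUSG00000034957, chromosome 7, 35119293 to 35121928) was at 138, 137 and 147 CPM in empty vector replicates A, B and C and at 177, 187 and 204 CPM with CEBPA V314VW. The groups did not overlap, and the log2 fold change was 0.43 ± 0.0832 (SE, edgeR adjusted p = 0.00259). Cells with both mutants gave 212, 216 and 219 CPM and cells with CSF3R T618I alone 138, 146 and 139 CPM, so the group with both mutants was again higher. Reads of the introduced cDNA that align to mouse Cebpa cannot be separated from those of the mouse gene. These counts therefore do not measure the vector and cannot show which vector a library carried. In other experiments the study measured the introduced gene with an assay for human CEBPA.

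Most other CEBP factors were lower. Of 7 tested family members, including Cebpa and the CEBP-homologous Ddit3, 1 rose and 4 fell at adjusted p under 0.05, set against 9.5% and 7.68% of all tested genes. Cebpe, which drives the terminal steps of granulocyte maturation and secondary granule genes, was at 72.7, 82.2 and 69.5 CPM in empty vector cells and 22.5, 16.5 and 21.3 CPM with the mutant (log2 fold change -1.90 ± 0.134, edgeR adjusted p = 8.31e-07). Cebpd fell from 37.8, 44.9 and 41.7 CPM to 16.9, 13.02 and 15.2 CPM, and Cebpb, the factor of emergency granulopoiesis and macrophages, from 147, 176 and 187 CPM to 79.8, 64.1 and 71.5 CPM. Each of these 3 genes showed replicate sets that did not overlap. Cebpg, a partner without an activation domain, fell by 0.29 on the log2 scale from 89.1, 92.8 and 92.4 to 75.1, 73.3 and 75.8 CPM.

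Among called genes, the 10 named genes with the largest gains in mean CPM included a T cell receptor gamma segment, a collagenase and genes of lipid transport and coagulation. Tcrg-C1, a constant segment of the T cell receptor gamma locus whose near-identical copies can share reads, gained the most of them, from 196, 209 and 244 CPM to 1415, 1164 and 1185 CPM (log2 fold change 2.54 ± 0.132, edgeR adjusted p = 1.06e-07). Mmp8, the neutrophil collagenase of secondary granules, came next, from 4.81, 7.54 and 3.83 CPM to 688, 989 and 845 CPM (7.29 ± 0.515, edgeR adjusted p = 8.18e-07). Fabp5, a fatty acid binding protein, rose from 61.9, 75.9 and 93.3 CPM to 454, 349.5 and 398 CPM, and the groups of all 3 genes were far apart. F13a1, the coagulation factor XIII A chain of monocytes and platelets, rose from 98.9, 90.3 and 57.9 CPM to 316, 433 and 445 CPM. Emb, which encodes the surface glycoprotein embigin, went from 627, 585 and 495 CPM to 1062, 1270.5 and 1236 CPM, and Stk26, a germinal center kinase, from 258, 238 and 239 CPM to 565, 623 and 665 CPM. Gstm1, Usp47, Ap1ar and Akap13 completed the set, with log2 fold changes of 1.04, 1.24, 1.68 and 1.10.

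Among called genes, the 10 with the largest losses included products of granulocytes, mast cells and heme synthesis. Elane, the neutrophil elastase gene, lost the most of them, from 2876 ± 558 CPM to 1158 ± 88.3 CPM (mean ± SD, n = 3 libraries), and Mcpt8, a basophil protease, fell from 1087 ± 76.8 CPM to 252 ± 13.5 CPM on the same measure. Ms4a3, a membrane protein restricted to granulocyte and monocyte progenitors, fell from 840.2, 992 and 1013 CPM to 322, 295 and 318 CPM. Alas1, the rate-limiting enzyme of heme synthesis outside the erythroid lineage, fell from 832, 808 and 723 CPM to 185, 205 and 221 CPM (log2 fold change -1.95 ± 0.143, edgeR adjusted p = 1.07e-06). Hdc, the histamine-forming decarboxylase, fell from 508, 444 and 431 CPM to 157, 147 and 172 CPM, and Alox5, which makes leukotrienes, from 557, 433 and 436 CPM to 211, 191 and 205 CPM. S100a8, a calprotectin subunit of neutrophils, varied between empty vector libraries at 216, 441 and 313 CPM but stayed above its 77.2, 41.4 and 53.4 CPM with the mutant. Idh1, the cytosolic isocitrate dehydrogenase, fell from 379, 364 and 369 CPM to 136, 151 and 171 CPM, and Serpina3g and Nkg7 fell by 1.31 and 1.43 on the log2 scale.

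**Figure D2:**
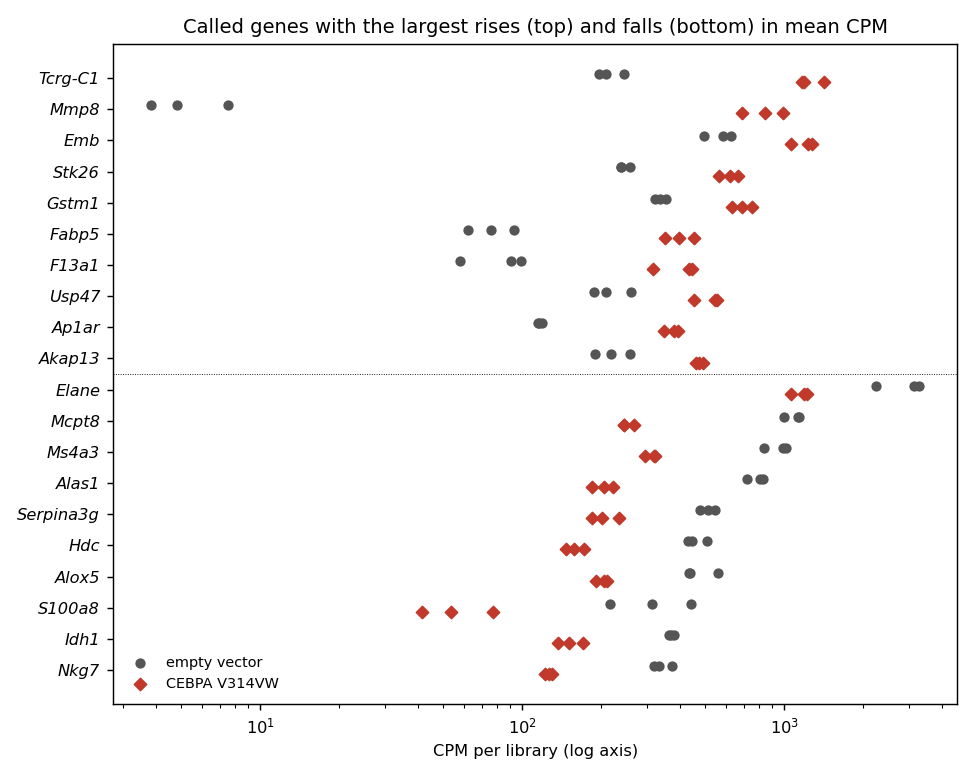
CPM on a log axis for the 10 called genes with the largest gain and the 10 called genes with the largest loss in mean CPM, with 1 point for each of the 3 empty vector and 3 CEBPA V314VW libraries. The 3 points of each group lie apart from those of the other group in every gene, from Tcrg-C1 with 1415, 1164 and 1185 CPM after the gain to Alas1 with 185, 205 and 221 CPM after the loss.

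A small set of genes passed from near silence to clear expression. By a rule of under 1 CPM in each empty vector library and at least 10 CPM in each CEBPA V314VW library, 15 genes were switched on, and 1 gene, Grm6, met the reverse rule. Sema3c, a secreted semaphorin, was at 0.174, 0.153 and 0.184 CPM and then 112, 156 and 154 CPM. Il17rb, the receptor subunit for IL-25, was at 0.444, 0.700 and 0.714 CPM and 92.9, 114 and 100.03 CPM, and Tnfsf13b, which encodes the B cell survival factor BAFF, at 0.753, 0.962 and 0.877 CPM and 57.4, 44.6 and 43.6 CPM. Without a stated strand setting, reads that run between Il17rb and its neighbour Chdh, which also rose, cannot be assigned. Expression of all 3 genes was even across the mutant libraries, and the log2 fold change of Tnfsf13b was 5.81 ± 0.233 (edgeR adjusted p = 9.84e-09).

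Several of the switched genes encode secreted or adhesion proteins. Lrrn3, a leucine-rich repeat membrane protein, rose from 0.348, 0.415 and 0.530 CPM to 32.6, 34.2 and 37.2 CPM. Sema4f, a transmembrane semaphorin, rose from 0.618, 0.590 and 0.510 CPM to 30.5, 39.1 and 32.2 CPM, Crhbp, which binds corticotropin-releasing hormone, from 0.154, 0.328 and 0.204 CPM to 27.3, 25.3 and 21.1 CPM, and Esm1, an endothelial proteoglycan, from 0.560, 0.853 and 0.918 CPM to 21.5, 23.4 and 21.7 CPM. Rbp4, the plasma carrier of retinol, had 2 counts in the empty vector libraries together and 2797 with CEBPA V314VW, a ratio of 1380 with a 95% interval of 382 to 11400 that covers counting error only. Ifi206 and Ifi208, which belong to a gene cluster described with the interferon genes, were at 40.2, 34.1 and 37.3 CPM and 17.9, 13.7 and 12.9 CPM with the mutant. Grm6, a glutamate receptor known from retinal bipolar cells, went the other way from 17.7, 14.1 and 10.6 CPM to 0.962, 0.846 and 0.944 CPM.

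The switched genes behaved in different ways when CSF3R T618I was present. Sema3c stayed high at 130.2, 131 and 131 CPM in cells with both mutants. Rbp4 was at 0.773, 1.01 and 0.776 CPM in those cells, far below its level with CEBPA V314VW alone. Its interaction between the mutants was -5.23 on the log2 scale (edgeR adjusted p = 0.0317). The rule that chose the genes switched on used libraries that also enter the interaction, which favours negative values. Sema4f and Esm1 were already on with CSF3R T618I alone, at 21.5, 24.1 and 37.6 CPM and 18.4, 13.4 and 12.4 CPM, and reached 89.2, 112 and 104 CPM and 86.9, 85.5 and 94.4 CPM with both.

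**Figure D3:**
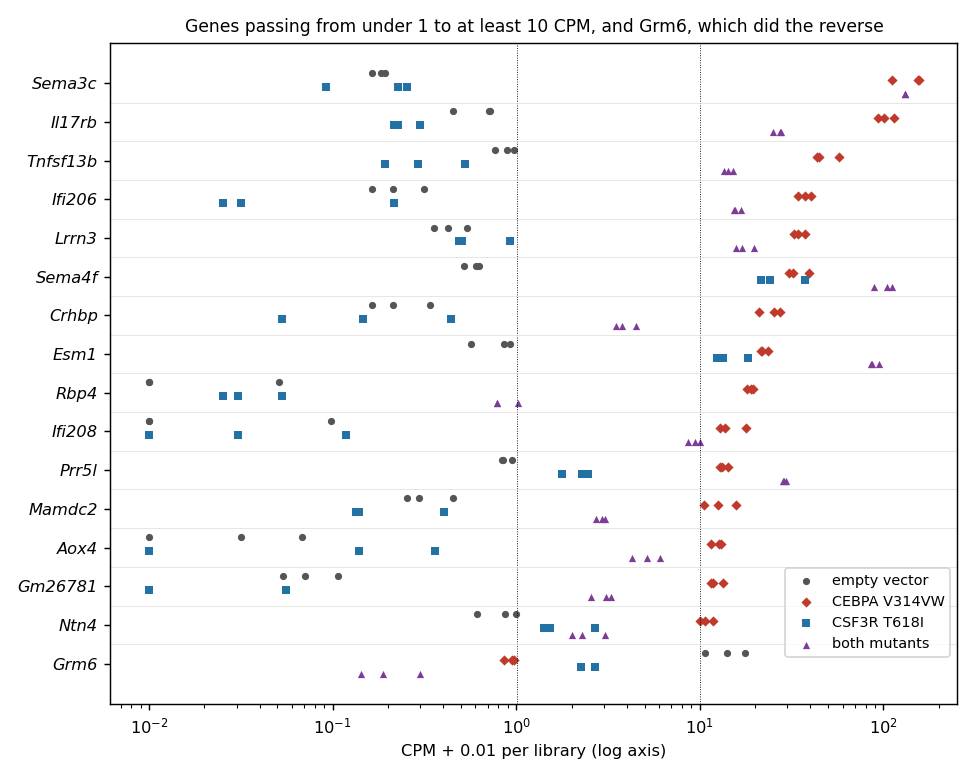
CPM plus 0.01 on a log axis for the 15 genes switched on and for Grm6, with 1 point per library in all 4 groups of 3 libraries. Empty vector points lie under 1 CPM and CEBPA V314VW points above 10 CPM for the 15 genes, while the points of the CSF3R T618I groups show that Rbp4 was low with both mutants and that Sema4f and Esm1 were above 10 CPM with CSF3R T618I alone.

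Granule genes of granulocytes fell, in particular those of the secondary granules. Below, counts of list members that rose or fell with CEBPA V314VW alone stand against 9.5% and 7.68% of all tested genes, respectively. Of 34 tested members of a list of secondary granule and late neutrophil genes, 18 fell, 1 rose (2 without empty vector replicate B), and the median log2 fold change was -2.11. Of 16 primary granule genes, 7 fell and 3 rose, with a median of -0.46. Their summed level was 14477 to 20572 CPM in empty vector libraries and 10307 to 12011 CPM with the mutant, which do not overlap. The difference between the lists was not tested. Ltf, the lactoferrin gene, was at 10.3, 42.3 and 0.469 CPM in empty vector cells and 0.0601, 0.181 and 0.103 CPM with CEBPA V314VW, so that its level varied strongly between empty vector libraries while every mutant library was lower (log2 fold change -7.24 ± 1.61, edgeR adjusted p = 0.00677). Ngp, a neutrophil granule protein, showed the same spread, at 96.3, 238 and 34.6 CPM and 4.03, 11.5 and 10.2 CPM, as did Camp, the cathelicidin gene, at 3.75, 15.2 and 0.9995 CPM and 0.0200, 0.161 and 0.123 CPM. In all 3 genes empty vector replicate B was highest and replicate C lowest. Csf3r, the receptor of granulocyte colony-stimulating factor, varied less and fell from 126, 115 and 95.1 CPM to 23.7, 28.6 and 29.5 CPM. Mmp8 was the only member of the list that rose, and with Mmp8 included the summed level of the list was 1322 to 2173 CPM in empty vector libraries and 1748 to 1983 CPM with the mutant, which overlap.

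Primary granule genes did not move as a block. Mpo, which encodes myeloperoxidase, was at 8259, 6277 and 4072 CPM and 2954, 4211 and 3887 CPM, and its log2 fold change of -0.75 did not pass the test (edgeR adjusted p = 0.0956), and empty vector replicate C lay within the range of the mutant libraries. Elane, the cathepsin G gene Ctsg, the proteinase 3 gene Prtn3 and the lysozyme gene Lyz2 fell by 1.31, 0.81, 0.51 and 1.77 on the log2 scale. Mgst1, a microsomal glutathione transferase and not a granule protease, was counted in the same list. It rose from 37.2, 47.5 and 38.8 CPM to 90.2, 95.8 and 98.2 CPM. Gstm1, another glutathione transferase of the list, rose by 1.04 on the log2 scale.

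Promoters of 3 of these genes are shown because their members lie at the extremes of the secondary granule list and hold the letters TTGCNNAA, which fit the palindrome bound by CEBP dimers. They span 250 bases before to 50 bases after the transcription start in RefSeq on GRCm38.p6, written 5′ to 3′ on the strand of the gene, with each match on either strand in capitals. Ltf and Ngp fell and Mmp8 rose. The windows are chr9:111019042-111019341, plus strand for Ltf, chr9:110419558-110419857, plus strand for Ngp and chr9:7558179-7558478, plus strand for Mmp8.
Ltf: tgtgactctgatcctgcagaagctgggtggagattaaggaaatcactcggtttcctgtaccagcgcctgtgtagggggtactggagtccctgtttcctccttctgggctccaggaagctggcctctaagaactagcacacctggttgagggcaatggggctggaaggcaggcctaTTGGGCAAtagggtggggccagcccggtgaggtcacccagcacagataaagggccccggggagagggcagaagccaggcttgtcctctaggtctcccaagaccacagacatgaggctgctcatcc
Ngp: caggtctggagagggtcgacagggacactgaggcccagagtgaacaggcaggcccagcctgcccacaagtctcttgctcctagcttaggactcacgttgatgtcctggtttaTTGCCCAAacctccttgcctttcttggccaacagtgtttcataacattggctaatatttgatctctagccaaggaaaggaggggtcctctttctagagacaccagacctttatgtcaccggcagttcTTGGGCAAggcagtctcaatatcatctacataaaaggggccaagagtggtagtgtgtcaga
Mmp8: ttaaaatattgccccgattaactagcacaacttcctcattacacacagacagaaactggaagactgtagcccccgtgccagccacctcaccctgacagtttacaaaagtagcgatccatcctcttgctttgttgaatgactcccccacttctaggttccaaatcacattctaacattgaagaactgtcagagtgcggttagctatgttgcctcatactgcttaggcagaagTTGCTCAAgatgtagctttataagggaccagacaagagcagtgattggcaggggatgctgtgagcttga
The letters occurred in 11 of 29 secondary granule genes with a promoter in the table (37.9%), in 3 of 14 primary granule genes and in 12.2% of all 27025 genes of the table. They were also common in other lists, at 60.0% of Ifi200 genes, which rose, 42.9% of retinoid and nuclear receptor genes and 39.1% of matrix proteases and inhibitors. Among tested genes with a promoter they occurred in 16.8% of those called lower, 13.3% of those called higher and 10.3% of all. A match describes these letters in these windows and was not tested as a binding site.

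Several effector genes of mature myeloid cells were lower. Of 25 genes of the NADPH oxidase and of antioxidant defence, 12 fell and 2 rose (1 without empty vector replicate A or CEBPA V314VW replicate C). Most of these falls were small, since 2 genes were called lower and 1 fell when tested against a 1.5-fold change. The summed level was 6290 to 7629 CPM in empty vector libraries and 6467 to 7626 CPM with the mutant, which overlap. Cybb, the catalytic subunit of the phagocyte oxidase, was at 48.6, 46.6 and 21.7 CPM and 10.3, 16.99 and 15.6 CPM, and its cytosolic partners Ncf1 and Ncf4 fell by 0.85 and 0.66 on the log2 scale. Of 20 enzymes and receptors of arachidonate mediators, 11 fell and 3 rose, with a median of -0.73. Cyp4f18, which inactivates leukotriene B4, fell from 51.2, 45.2 and 34.7 CPM to 5.41, 5.60 and 5.25 CPM, and Ptgs1, the constitutive cyclooxygenase, from 96.99, 98.7 and 84.6 CPM to 29.9, 32.7 and 31.7 CPM. Both genes kept the 2 groups apart in every library. Pattern recognition lists were balanced. Of 23 toll-like receptors and adaptors 3 rose and 3 fell, 13% each, against 9.5% and 7.68% of all tested genes. The count that fell was 1 without empty vector replicate B and 5 or 6 without 1 of the CSF3R T618I replicates. Of 22 C-type lectin and Fc receptors 6 rose and 6 fell, 27.3% each. The count that rose was 3 without empty vector replicates A or C or CEBPA V314VW replicates B or C.

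Chemoattractant receptors split by ligand. Of 26 tested genes, 8 fell and 6 rose. The receptors for complement C5a (C5ar1 and C5ar2), for C3a (C3ar1), for leukotriene B4 (Ltb4r1 and Ltb4r2), for platelet-activating factor (Ptafr) and for the CXCL1 and CXCL2 chemokines (Cxcr2) fell by 2.18 (Ltb4r1) to 3.64 (C5ar1) on the log2 scale. The receptors for cysteinyl leukotrienes (Cysltr1 and Cysltr2) rose by 2.14 and 2.38. S1pr1, the sphingosine 1-phosphate receptor used for egress, rose by 1.58.

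Markers of other blood lineages were examined because the sorted population could hold their progenitors. Of 10 eosinophil genes 7 fell and 2 rose, and their summed level was 482 to 663 CPM in empty vector libraries and 137 to 153 CPM with the mutant. Epx, the eosinophil peroxidase, was at 222, 225 and 141 CPM and 2.42, 17.1 and 15.6 CPM, with CEBPA V314VW replicate A lowest. Of 30 mast cell and basophil genes 14 fell, and the summed level went from 5054 to 6543 CPM to 3155 to 3191 CPM. Gzmb, a granzyme made by mast cells and cytotoxic lymphocytes, fell from 217, 181 and 157 CPM to 21.7, 34.03 and 48.1 CPM.

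Many megakaryocyte genes and some erythroid genes fell. In the megakaryocyte and platelet list 14 of 23 genes fell and 2 rose, with summed levels of 1912 to 3357 CPM and 1303 to 2058 CPM that overlap. Itga2b, the platelet integrin alpha chain, fell from 138, 133 and 116 CPM to 78.7, 85.7 and 79.9 CPM, whereas Pf4, a platelet chemokine, rose from 9.37, 13.8 and 14.7 CPM to 30.98, 24.98 and 23.5 CPM. Of 28 erythroid genes 9 fell and 0 rose by edgeR (0 at an unadjusted p under 0.05 and 0 by DESeq2). Hemgn, a nuclear protein of red cell precursors, was at 10.9, 11.5 and 13.3 CPM and 4.75, 5.56 and 6.53 CPM.

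Monocyte and dendritic cell markers were mixed. In the monocyte and macrophage list 7 of 28 genes rose and 8 fell (5 fell without CEBPA V314VW replicate A), and the summed level was 2242 to 2579 CPM and 2300.1 to 2502 CPM. Fn1, the fibronectin gene, rose from 1.82, 2.82 and 0.367 CPM to 7.29, 12.8 and 11.7 CPM, and Adgre1, which encodes F4/80, fell from 28.2, 22.8 and 16.6 CPM to 6.27, 8.38 and 7.86 CPM. Of 24 dendritic cell and MHC class II genes 5 rose, and the sum went from 219 to 244 CPM to 372 to 386 CPM. Clec10a, a lectin of dendritic cells and macrophages, rose from 4.52, 5.07 and 4.49 CPM to 21.9, 26.8 and 25.2 CPM.

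Lymphoid lists held few abundant genes. Of 15 B cell and lymphoid progenitor genes 4 rose and 2 fell (1 without empty vector replicate A or CEBPA V314VW replicate B or C). Dntt, the terminal transferase of early lymphoid cells, rose from 1.02, 0.437 and 0.877 CPM to 4.75, 3.002 and 2.85 CPM. Of 15 T and NK cell genes 8 fell and 3 rose, and the sum went from 585 to 654 CPM to 199 to 223 CPM, with Cd3e, Cd3g, Cd4 and Cd8a below the expression filter. Lat, an adaptor shared by T cells, mast cells and platelets, fell from 58.05, 59.7 and 64.1 CPM to 15.5, 10.6 and 11.99 CPM. Lat is also counted in the megakaryocyte and platelet list. Gzmb, with means of 185 CPM in empty vector cells and 34.6 CPM with the mutant, is also counted in the mast cell and basophil list. The fall of the T and NK cell sum is therefore in part a fall of genes shared with other lists. How much of it comes from genes particular to T and NK cells was not tested. Stromal and endothelial markers summed to 171 to 225 CPM and 171 to 210.2 CPM, which overlap. The part that a changed mix of cells has in the other results was not tested.

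Interferon-stimulated genes rose together. Type I and type III interferons signal through paired receptors to transcription factor complexes that hold STAT2 and IRF9 and induce antiviral effectors, and guanylate-binding proteins and many MHC class I genes also respond to interferon gamma. Of 14 tested ligands, receptors and signal transducers 6 rose and 1 fell. Ifnar2, a subunit of the type I receptor, was at 44.8, 43.6 and 44.02 CPM and 66.1, 67.5 and 67.3 CPM, and Irf9 at 33.02, 27.1 and 30.01 CPM and 74.7, 72.3 and 73.3 CPM. Stat2 rose by 0.76 on the log2 scale. Usp18, a negative regulator that is itself induced by interferon, rose from 10.4, 10.6 and 9.10 CPM to 47.3, 35.5 and 44.1 CPM (log2 fold change 2.08 ± 0.181, edgeR adjusted p = 4.63e-06).

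Sensors of nucleic acids and the regulatory factors followed. Of 18 sensors and adaptors 8 rose and 2 fell (1 without empty vector replicate B). Tlr7, the endosomal receptor for single-stranded RNA, rose from 0.811, 0.590 and 0.428 CPM to 5.39, 9.59 and 9.504 CPM, and Tmem173, which encodes STING, from 55.1, 45.7 and 43.8 CPM to 124, 166 and 153 CPM. Ddx58 and Ifih1, the cytosolic RNA sensors RIG-I and MDA5, rose by 1.54 and 1.07. Among 9 interferon regulatory factors 4 rose, Irf1 and Irf2 by 0.90 and 0.41, and 1 fell, Irf5 at -0.39, which did not pass without empty vector replicates B or C or CEBPA V314VW replicate A.

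The antiviral effectors responded broadly. Of 50 tested members 40 rose and 2 fell, with a median log2 fold change of 1.24. Ifit1, which binds RNA lacking the host cap methylation, rose from 2.28, 1.90 and 1.20 CPM to 30.9, 20.9 and 25.5 CPM (log2 fold change 3.84 ± 0.277, edgeR adjusted p = 9.30e-07). Rsad2, which encodes viperin, was at 4.04, 3.26 and 2.77 CPM and 22.5, 22.6 and 24.8 CPM, and Isg15, a ubiquitin-like modifier, at 3.77, 4.07 and 3.77 CPM and 31.2, 18.4 and 24.3 CPM. Ifi44 rose from 0.753, 0.721 and 1.02 CPM to 19.6, 14.2 and 18.7 CPM and Oasl2 from 8.25, 6.03 and 5.69 CPM to 72.5, 53.1 and 64.1 CPM, with the lowest mutant library above the highest empty vector library in each of these 5 genes. The members that fell were Slfn4 and Slfn2, at -3.55 and -1.02, 2 genes of the Schlafen family whose close copies can share reads.

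Guanylate-binding proteins, the Ifi200 cluster and many MHC class I genes rose as well. Of 17 guanylate-binding proteins and immunity GTPases 15 rose and 0 fell by edgeR (0 at an unadjusted p under 0.05 and 0 by DESeq2), and their sum went from 278 to 308 CPM to 786 to 822 CPM. Gbp5, which promotes inflammasome assembly, rose from 6.35, 3.87 and 5.04 CPM to 40.4, 50.8 and 50.9 CPM. Of 11 genes of the Ifi200 cluster on chromosome 1, whose proteins bind DNA, 10 rose and 0 fell by edgeR (0 and 0 by the same measures), with a median of 3.18. Ifi209 rose from 4.15, 2.21 and 2.94 CPM to 114, 136 and 151 CPM, and Ifi213 had 0 counts in the empty vector libraries together and 1116 with CEBPA V314VW, which makes it at least 368-fold higher when 3 counts over the group are taken as the floor. Of 24 genes of MHC class I presentation 12 rose, by less, and 5 rose when tested against a 1.5-fold change. B2m went from 751, 747 and 737 CPM to 988, 1118 and 1141 CPM, and the transactivator Nlrc5 rose by 1.28. The summed level of this list was 8174 to 10328 CPM in empty vector libraries and 8823 to 10114 CPM with the mutant, which overlap. Genes of the Ifi200, Gbp and H2 families are similar in sequence, so their reads may be shared between copies.

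Promoters of 4 interferon-responsive genes are shown because these genes had large changes in their lists and hold the letters GAAANNGAAA, the core of the interferon-stimulated response element. The windows are defined as for the granule genes, and matches on either strand are in capitals. They lie at chr19:34640639-34640938, plus strand for Ifit1, chr12:26456403-26456702, minus strand for Rsad2, chr3:142496684-142496983, plus strand for Gbp5 and chr1:173599223-173599522, minus strand for Ifi213.
Ifit1: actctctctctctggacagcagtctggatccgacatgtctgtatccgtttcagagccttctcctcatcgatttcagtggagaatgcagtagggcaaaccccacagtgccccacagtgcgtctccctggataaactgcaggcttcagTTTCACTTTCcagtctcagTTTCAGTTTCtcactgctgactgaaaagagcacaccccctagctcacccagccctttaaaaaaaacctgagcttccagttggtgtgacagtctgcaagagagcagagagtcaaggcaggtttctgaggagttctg
Rsad2: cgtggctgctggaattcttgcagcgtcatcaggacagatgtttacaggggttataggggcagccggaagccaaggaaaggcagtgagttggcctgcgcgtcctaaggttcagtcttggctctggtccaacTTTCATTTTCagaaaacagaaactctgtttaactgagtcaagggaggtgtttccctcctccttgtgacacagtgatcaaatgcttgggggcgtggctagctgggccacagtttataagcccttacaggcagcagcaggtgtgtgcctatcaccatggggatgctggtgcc
Gbp5: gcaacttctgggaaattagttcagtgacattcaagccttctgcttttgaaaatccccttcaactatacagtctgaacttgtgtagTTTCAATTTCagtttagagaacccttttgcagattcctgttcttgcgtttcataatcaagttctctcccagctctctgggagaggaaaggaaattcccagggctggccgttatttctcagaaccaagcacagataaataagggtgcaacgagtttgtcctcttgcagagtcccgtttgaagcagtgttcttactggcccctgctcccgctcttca
Ifi213: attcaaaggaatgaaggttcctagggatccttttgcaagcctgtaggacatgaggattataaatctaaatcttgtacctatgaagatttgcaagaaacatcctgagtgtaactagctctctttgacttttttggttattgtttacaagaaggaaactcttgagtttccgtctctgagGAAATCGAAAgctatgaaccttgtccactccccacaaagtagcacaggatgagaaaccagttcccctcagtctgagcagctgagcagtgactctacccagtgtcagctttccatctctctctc
The letters were found in 20 of 41 antiviral effectors, 9 of 10 guanylate-binding proteins and GTPases, 8 of 10 Ifi200 genes and 5 of 20 MHC class I genes with a promoter in the table. They occurred in 63 of 617 genes called higher (10.2%), 16 of 440 called lower (3.64%) and 3.99% of all genes of the table. The share among genes called higher includes the interferon genes that were chosen with their rise known.

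For many antiviral effectors the change with CEBPA V314VW differed when CSF3R T618I was present. In the 6 libraries with CSF3R T618I, which share no control with the first comparison, genes that rose with CEBPA V314VW made up 8.43% of those tested and genes that fell 10.1%. The interaction, which tests whether the change with CEBPA V314VW differed with and without CSF3R T618I, was higher for 0.501% and lower for 1.27% of genes at adjusted p under 0.05. The antiviral effectors had a median log2 fold change of 1.24 without CSF3R T618I and -0.03 with it, where 10 rose and 10 fell, and the interaction was lower for 30 of 50. That count was 19 without empty vector replicate B and 19 without the replicate B of both mutants. Irf7, the amplifier of the type I response, was at 5.33, 3.48 and 5.20 CPM with CSF3R T618I alone and 4.95, 4.81 and 5.96 CPM with both mutants, against 12.3, 9.68 and 9.53 CPM in empty vector cells and 99.7, 68.5 and 80.2 CPM with CEBPA V314VW alone (interaction -2.80, edgeR adjusted p = 0.000299). Isg15 and Rsad2 gave interactions of -3.91 and -3.62 (edgeR adjusted p = 0.0007 and 0.000176).

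The guanylate-binding proteins and the Ifi200 cluster rose with CEBPA V314VW in the CSF3R T618I background as well. Guanylate-binding proteins and GTPases had medians of 1.64 without and 1.35 with CSF3R T618I, and 11 of 17 rose with CEBPA V314VW in that background. The interaction was lower for 2 of them (1 to 4 with 1 library left out, 4 without CSF3R T618I replicates A or C). The Ifi200 cluster had medians of 3.18 and 3.08, 9 of 11 rose, and the interaction was higher for 1. Ifi209 reached 110.4, 112 and 114 CPM with both mutants and Gbp5 30.4, 32.01 and 36.5 CPM. MHC class I genes had medians of 0.49 and -0.04, with a lower interaction for 4 of 24, a count that ranged from 0 to 11 when 1 library was left out, with 11 without CSF3R T618I replicate C. Whether the families differ from each other was not tested.

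**Figure D4:**
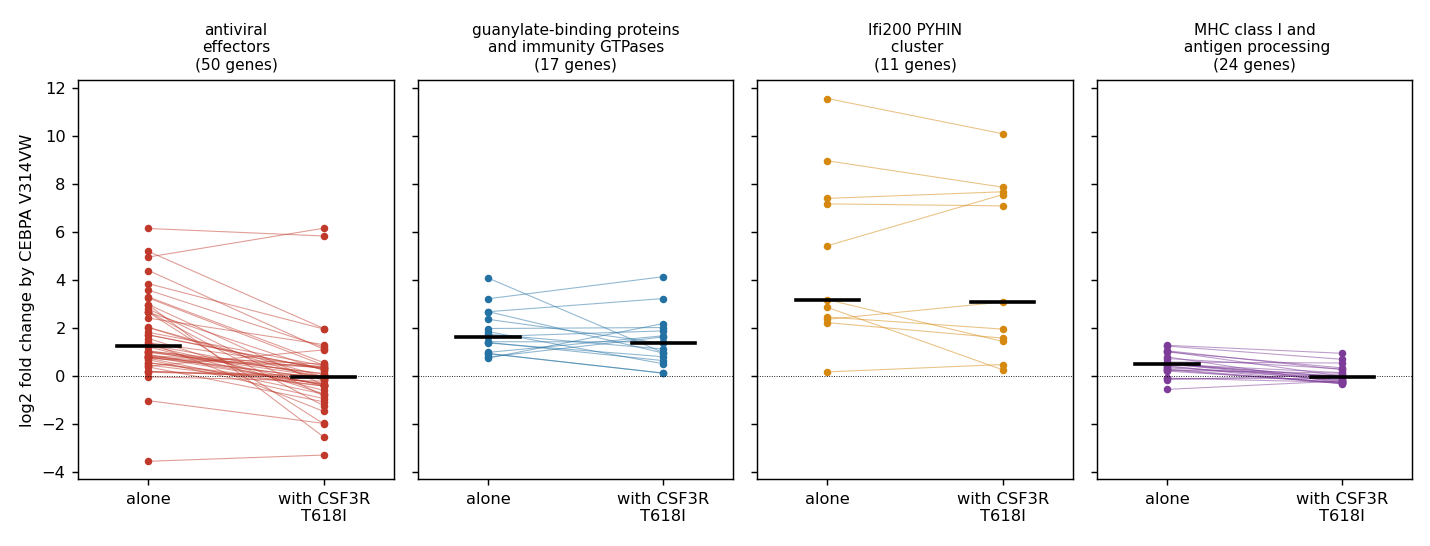
Each point is 1 gene of 4 families, antiviral effectors, guanylate-binding proteins and GTPases, the Ifi200 cluster and MHC class I genes, with its log2 fold change for CEBPA V314VW without and with CSF3R T618I on the vertical axis, and black bars mark medians. The median of the antiviral effectors goes from 1.24 to -0.03, while that of the Ifi200 cluster stays at 3.18 and 3.08.

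Regulators of stem and progenitor cells moved in both directions. Of 35 transcription factors 6 rose and 11 fell (17.1% and 31.4%, against 9.5% and 7.68% of all tested genes). Mecom, which encodes the stem cell factor EVI1, rose from 5.25, 3.96 and 5.14 CPM to 66.3, 79.04 and 73.8 CPM (log2 fold change 3.93 ± 0.333, edgeR adjusted p = 3.48e-06). Id1, Id2 and Id3, inhibitors of basic helix-loop-helix factors, fell by 2.18, 1.82 and 1.31, and Id1 was at 39.8, 49.8 and 55.2 CPM and 12.9, 8.97 and 10.1 CPM. Gfi1, a repressor needed for granulocyte development, fell from 168, 168 and 149.7 CPM to 85.04, 80.7 and 89.03 CPM. Spi1, which encodes the myeloid factor PU.1, and Gata2 fell by 0.61 and 0.89.

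Some HOX factors rose. Of 20 tested HOX, MEIS and PBX genes 5 rose and 0 fell by edgeR (0 at an unadjusted p under 0.05 and 0 by DESeq2), and 3 rose when any of empty vector replicates A or B, CEBPA V314VW replicates B or C, or both-mutant replicate B was left out. Hoxa9, a progenitor self-renewal factor, rose from 41.4, 42.95 and 47.1 CPM to 64.6, 63.04 and 66.6 CPM, and Hoxa7 by 0.90 on the log2 scale.

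Surface proteins used to define stem cells and progenitors were divided. Of 28 genes 8 rose and 11 fell. Prom1, which encodes CD133, fell from 53.8, 51.98 and 35.1 CPM to 5.27, 8.40 and 10.3 CPM and Cd34 from 190.1, 161 and 192 CPM to 74.96, 91.01 and 86.1 CPM. Cd33, a sialic acid binding lectin, rose from 7.61, 7.34 and 4.85 CPM to 43.9, 49.3 and 47.7 CPM. Procr, the endothelial protein C receptor, Cd38 and Ly6a, which encodes SCA-1, rose by 2.25, 1.44 and 1.19.

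Cytokine receptors fell more often than they rose. Of 41 receptors 15 fell and 7 rose, counts that became 9 without empty vector replicate A or CEBPA V314VW replicates A or B, and 4 without empty vector or CEBPA V314VW replicates B or C, respectively. Il2ra, the inducible IL-2 receptor chain, fell from 19.2, 12.7 and 8.57 CPM to 0.822, 2.34 and 2.05 CPM. Il6st, the gp130 chain shared by IL-6 family receptors, rose from 17.2, 14.1 and 13.4 CPM to 49.2, 97.7 and 83.9 CPM. Csf2ra and Csf2rb, chains of the granulocyte-macrophage growth factor receptor, fell by 0.65 and 0.44.

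Among 34 chemokine and cytokine ligands 11 rose and 12 fell. Tnf, an inflammatory cytokine, was at 8.26, 8.98 and 8.28 CPM in empty vector cells and 1.36, 2.08 and 1.89 CPM with the mutant. Cxcl3, a neutrophil attractant, rose from 1.39, 1.51 and 1.47 CPM to 13.3, 13.5 and 12.05 CPM. Csf2, which encodes a granulocyte and macrophage growth factor, had 113 counts in empty vector libraries together and 3 with CEBPA V314VW, a ratio of 38.1 with a 95% counting interval of 12.7 to 188. Il10, Ccl5 and Tnfsf10 rose by 1.83, 2.62 and 1.84 on the log2 scale.

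Some feedback genes of STAT signalling and some early response genes were lower. Of 25 feedback genes 7 fell and 3 rose. Socs2, which limits growth hormone and cytokine signals, rose from 32.2, 34.5 and 40.6 CPM to 255, 223 and 227 CPM, while Cish, its close relative, fell from 37.04, 40.6 and 46.5 CPM to 14.5, 11.04 and 13.4 CPM. Of 29 immediate early and stress genes 13 fell and 1 rose. Dusp1, a phosphatase of MAP kinases, was at 139, 102 and 86.3 CPM and 24.8, 24.2 and 23.8 CPM, and Zfp36, an RNA-binding protein that destabilizes cytokine mRNA, fell by 1.70. Atf3, a stress-induced transcription factor, was the member that rose, by 1.21.

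Several axon guidance genes also rose. Of 29 semaphorins, plexins and guidance receptors 13 rose and 2 fell (4 without CSF3R T618I replicate C), with a median of 0.64. Their summed level was 526 to 721 CPM in empty vector libraries and 542 to 698 CPM with the mutant, which overlap. Some members that rose had few counts, such as Sema3d with 1 count in empty vector libraries together and 114 with CEBPA V314VW. Sema5a had 2 and 87. Beside Sema3c and Sema4f, Sema3a, Sema6a and Sema6d rose by 5.25, 4.17 and 6.53. Plxna3, a receptor for class 3 semaphorins, rose from 2.97, 1.75 and 1.67 CPM to 12.1, 21.3 and 19.5 CPM, and Nrp1, their co-receptor, fell from 68.2, 54.7 and 50.5 CPM to 5.63, 7.76 and 7.37 CPM.

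Retinoid and nuclear receptor genes included some of the most changed members. Of 27 genes 10 rose and 5 fell, counts that became 6 without CEBPA V314VW replicate B and 3 without that replicate or empty vector replicate C, respectively. Thrb, the thyroid hormone receptor beta, rose from 1.004, 0.918 and 1.14 CPM to 111, 129 and 119 CPM. Dhrs3, which reduces retinal to retinol, rose from 11.7, 9.99 and 9.49 CPM to 63.1, 58.2 and 57.5 CPM, and Aldh1a3, which makes retinoic acid, fell from 24.4, 19.6 and 19.5 CPM to 9.64, 5.78 and 7.96 CPM. Of 25 vascular, hormone and peptide signal genes 8 rose and 5 fell, with a median of 0.08. Ednra, an endothelin receptor gene, was at 0.232, 0.284 and 0.0816 CPM and 4.85, 8.26 and 8.33 CPM, and Calcrl, the adrenomedullin receptor, rose by 1.92.

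Mmp8 was not alone among its neighbours. Mmp13, Mmp12, Mmp8 and Mmp27 are adjacent tested protein-coding genes on chromosome 9 between positions 7272514 and 7581885 of mm10, and all 4 were called higher. Mmp12, the macrophage elastase, rose from 0.0386, 0.393 and 0.102 CPM to 16.7, 13.3 and 7.51 CPM and Mmp27 from 0.406, 0.415 and 0.592 CPM to 5.95, 6.57 and 4.84 CPM. Mmp13, a collagenase, had 0 counts in the empty vector libraries together and 193 with CEBPA V314VW, at least 63.6-fold higher against a floor of 3 counts over the group. Timp2, an inhibitor of these proteases, fell by 1.85 on the log2 scale.

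Few genes of ribosome biogenesis, replication and mitosis passed the test, and the lists of G1 cyclins and of glycolysis held members that fell. Among 30 genes of MYC and ribosome biogenesis 0 rose and 0 fell by edgeR (2 and 1 at an unadjusted p under 0.05, 1 and 1 by DESeq2), with log2 fold changes from -0.30 to 0.35. Myc itself was at 603, 571 and 613 CPM and 615, 645 and 649.5 CPM, with an edgeR adjusted p of 0.712. Of 39 replication genes 2 fell and 0 rose by edgeR (1 at an unadjusted p under 0.05, 0 by DESeq2), and Mki67, a proliferation marker, was at 319.9, 255 and 214 CPM and 236, 242 and 232 CPM with groups that overlapped. Among 34 mitotic genes 1 rose and 1 fell (0 to 4 fell with 1 library left out, 4 without CSF3R T618I replicate C), and Ect2, an activator of cytokinesis, rose, from 188, 161 and 163 CPM to 312, 394 and 415 CPM. Among 20 G1 cyclins and inhibitors of cyclin-dependent kinases 4 fell (20%) and 2 rose (10%, near the 9.5% of all tested genes). The count that rose was 1 in each refit without 1 library, except that without CSF3R T618I replicate C. Ccnd3, a D-type cyclin, fell from 394, 412 and 443 CPM to 271, 248 and 266 CPM. Of 31 glycolysis and hypoxia genes 9 fell (5 without CEBPA V314VW replicate A). None of 82 cytosolic ribosomal protein genes and none of 46 complex I subunit genes passed the test in either direction by edgeR (0 at an unadjusted p under 0.05 and 0 by DESeq2). A p that misses the threshold does not show that these genes were equal.

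**Figure D5:**
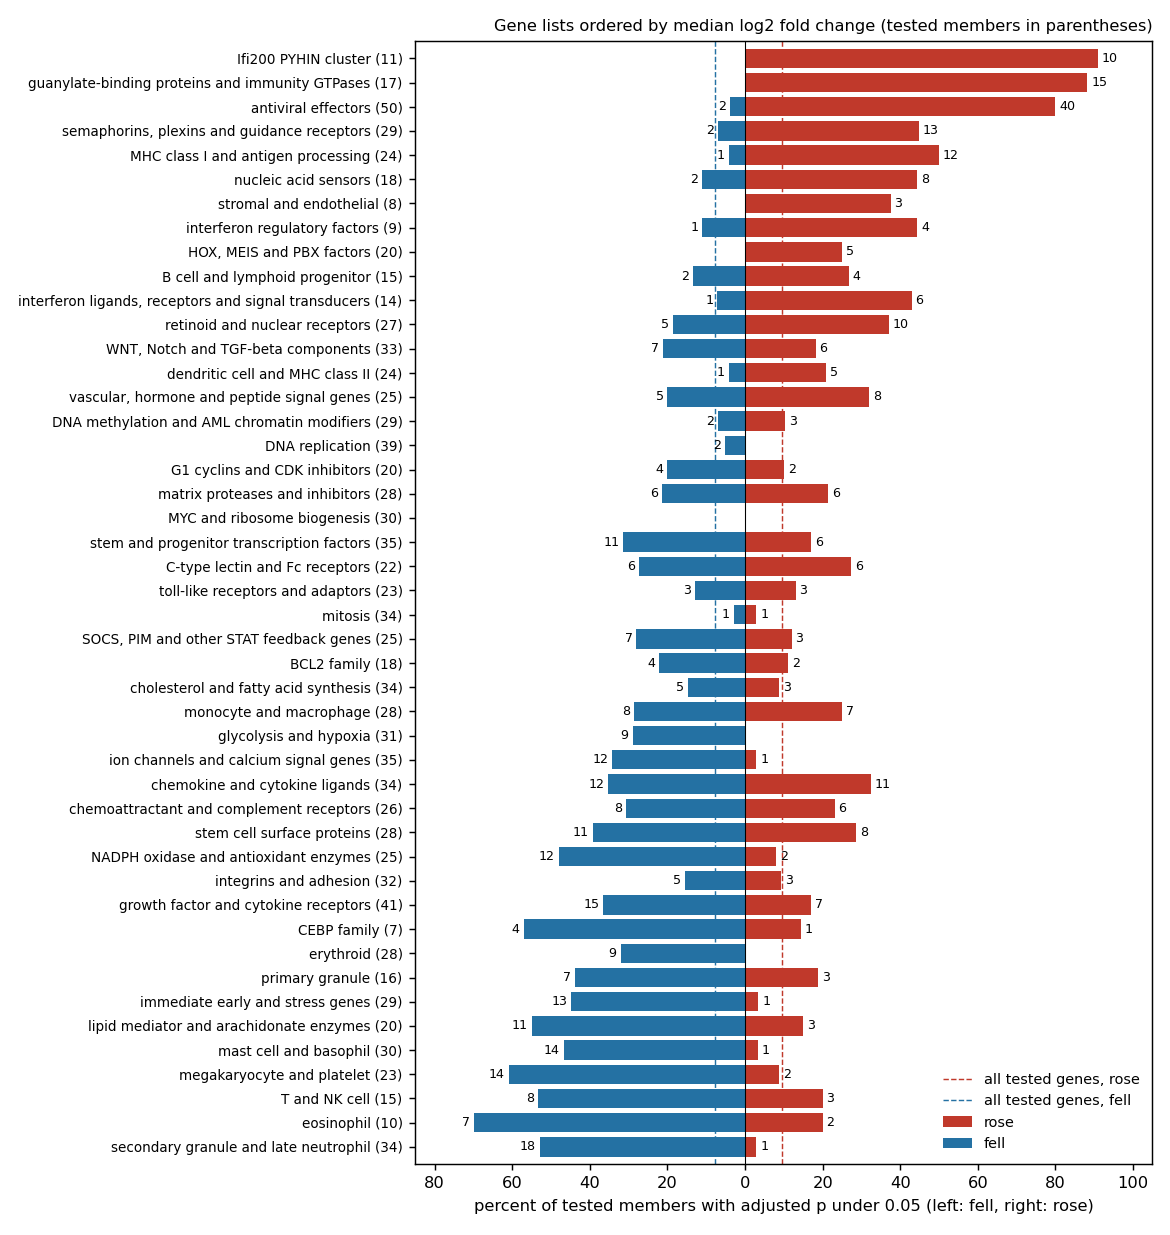
Share of tested members that rose and fell at adjusted p under 0.05 in each of 46 gene lists, in percent, with the number of members beside each bar and dashed lines at 9.5% and 7.68%, the shares of all tested genes. The Ifi200 cluster, the guanylate-binding proteins and the antiviral effectors reach farthest on the rising side, and MYC and ribosome biogenesis shows 0 members on both sides.

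A large share of the called genes was called again in the CSF3R T618I background. There, 744 genes were called higher (4.55%) and 678 lower (4.14%) between cells with both mutants and cells with CSF3R T618I alone. Of the 910 genes called higher without CSF3R T618I, 488 (53.6%) were also called higher with it, which is 65.6% of the calls there, and 9 were called lower. Of the 587 genes called lower, 348 (59.3%) were called lower again, 51.3% of the calls there. The median log2 fold change of the first set was 2.04 without and 1.34 with CSF3R T618I, and that of the second was -1.67 and -1.29, where the first value of each set is the one that chose its genes. The interaction itself was called for 229 genes (1.4%), among them 131 of the 910 and 24 of the 587. Left-out libraries moved the interaction count from 133 without both-mutant replicate B to 563 without CSF3R T618I replicate C, and the count of lower genes in the CSF3R T618I background was 1036 without that same CSF3R T618I replicate C. Secondary granule genes had a median of -2.11 alone and -3.05 with CSF3R T618I, where 30 of 34 fell. The interaction was lower for 3 of the 34, with Mmp8 among them, set against 1.27% of all tested genes. It was lower for 0 of the 18 that fell without CSF3R T618I, whose medians were -2.50 alone and -2.57 with CSF3R T618I. Cd33 rose by 2.83 alone and by 0.53 with CSF3R T618I (interaction -2.30, edgeR adjusted p = 0.00739).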

How the data were processed

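RNA of sorted cells (RNeasy micro kit) was made into libraries with a SMARTer universal low input kit, which includes PCR. The deposited table holds whole-number read counts per gene for 12 libraries. Per the labels and the study's methods the authors trimmed reads with Trimmomatic, aligned them with STAR to mm10 and tested with DESeq2. The program used for counting, with its strand setting and annotation, is not given in the sources available, so antisense and overlapping genes cannot be separated. Of 51918 lines, 6 repeated another line and were dropped. Every column matched a sample. Blank symbols (1918) were filled from a gene name table where possible (1750), and 51719 gene IDs were found in GENCODE M21.

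Counts were tested in R 4.3.3 with edgeR 4.0.16, using limma 3.58.1: TMM scaling, an expression filter by group, 1 robust quasi-likelihood fit to all 12 libraries with CSF3R, CEBPA and their interaction, and Benjamini-Hochberg adjustment over 16360 genes. Library depth was 44210071 to 51244889 counts in the 6 libraries compared, the spread between replicates had a common coefficient of variation of 0.166, and the tested genes held nearly all counts. Counting intervals cover counting error only. The script was tested on simulated data.

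Genes were named by a rule: Cebpa, the 10 largest gains and losses in mean CPM among called genes that are not predicted genes, the switched genes, and for each of 46 gene lists up to 2 members with the largest change in each direction at a mean of at least 5 CPM, 152 genes in all. Other list members in the text were chosen after their values were seen. The comparison and the lists were chosen with earlier results of these data known. Promoters came from RefSeq (GRCm38.p6), where 11019 tested genes matched, and a gene counted as holding a motif if any of its promoters did. Alternatives were DESeq2 1.42.0, other scalings, filters and fits, a replicate block, and leaving out each library. Results for a few genes are not reported here.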

Additional observations from a re-analysis of the deposited data

Results flagged for a closer look

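The change with CEBPA V314VW differed with and without CSF3R T618I, by the edgeR interaction test, for 229 genes at adjusted p under 0.05 and a difference beyond 1 on the log2 scale. Among the called genes with the largest change in CPM, the interaction was -3.50 for Mmp8 (adjusted p = 0.00720), whose CPM was 99.9, 29.6 and 128 with CSF3R T618I alone and 1084, 1277 and 1181 with both mutants. It was 1.65 for Gstm1 (adjusted p = 9.48e-05), which rose by 1.04 without CSF3R T618I and by 2.68 with it, and 1.01 for Idh1 (adjusted p = 0.0123), which fell by 1.28 without CSF3R T618I and changed by -0.27 with it.

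Among the genes switched on, the interaction was -1.57 for Lrrn3 (adjusted p = 0.0262), -4.01 for Sema4f (adjusted p = 9.04e-05), -2.24 for Esm1 (adjusted p = 0.000647) and -5.23 for Rbp4 (adjusted p = 0.0317). Sema4f and Esm1 rose by 1.87 and 2.60 within the CSF3R T618I background, from levels that were above those of empty vector cells, whereas Rbp4 was at 0.0207, 0.0152 and 0.0432 CPM with CSF3R T618I alone. These patterns were not weighed against any explanation. All genes named under this heading were chosen by their values in the libraries without CSF3R T618I, which also enter the interaction. That choice by itself favours interactions opposite in sign to the change without CSF3R T618I.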

How the results depend on the processing

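The count of called genes was 1497, and 1487 with DESeq2 size factors, 1514 with total counts, 1538 without a filter, 1163 with at least 1 CPM in 3 libraries, 1499 from the 6 libraries alone, 1440 with a replicate block, 1543 with the length trend removed, 1212 tested against a 1.5-fold change, 1635 by DESeq2 and 1302 to 1395 with 1 library left out. Same-letter libraries deviated with correlations of -0.274, 0.0604 and -0.0127 for A, B and C, so the letters were not taken to pair them. In the CSF3R T618I background, leave-one-out counts of lower genes ran from 514 to 1036. The interaction count was 229, 357 by DESeq2, 154 with a replicate block and 133 to 563 with 1 library left out. No named gene changed direction, and 114 of 152 kept their side of the threshold in every setting. Against a 1.5-fold change 36 named genes no longer passed, and 53 of 92 counts of list members that rose or fell moved by over 1.5 times. The count of antiviral effectors with a lower interaction went from 30 to 15 there and was 22 with a replicate block. Depth limits genes under about 1 CPM, and the cause of these changes was not tested.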

Other observations

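Some called genes stood side by side. Among tested protein-coding genes in chromosome order, 26 runs of at least 3 neighbours were called higher, with 94 of the 743 called higher. Another 9 runs were called lower, with 30 of the 530 called lower. The longest was the Ifi200 cluster on chromosome 1, from 173468485 to 173942672 of mm10, with 10 genes. Another run of 6 genes on chromosome 1, from 60482292 to 62818695, held the T cell costimulatory genes Cd28, Ctla4 and Icos and the semaphorin co-receptor Nrp2. Cd28 was at 2.78, 2.49 and 2.45 CPM in empty vector cells and 14.4, 21.9 and 22.6 CPM with CEBPA V314VW, and Ctla4 and Icos rose by 2.47 and 2.81 on the log2 scale, although the T cell receptor complex genes Cd3e and Cd3g were below the expression filter. The longest run downward, on chromosome 17 from 48125605 to 48275360, held 5 genes with the myeloid activating receptors Trem1 and Trem3. Trem3 fell from 68.7, 88.2 and 73.2 CPM to 25.99, 28.05 and 30.1 CPM and Trem1 from 15.6, 13.9 and 9.67 CPM to 3.07, 3.95 and 3.94 CPM. Some runs hold families of similar sequence, such as the Ifi200, Gbp and H2 genes, whose reads may be shared between copies. These runs were noticed in the data and no chance level was computed for them.

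Metabolic genes included single large changes. Hmgcs1, an early enzyme of cholesterol synthesis, rose from 126, 128 and 131 CPM to 325, 371 and 404 CPM, and Abca1, a cholesterol exporter, rose by 2.85 on the log2 scale. Among 31 glycolysis and hypoxia genes Ldhb fell by 1.44 and Ddit4 by 1.41, and 0 rose by edgeR (3 at an unadjusted p under 0.05, 2 by DESeq2). Chdh, which oxidizes choline, rose from 40.4, 30.2 and 26.05 CPM to 177, 248 and 246 CPM and lies next to Il17rb.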
